A study of Homo sapiens with 24 samples.

Results

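The nuclear genes of the mitochondrial respiratory chain were followed in K562 cells, a human chronic myelogenous leukaemia line with erythroid features, after the erythroid transcription factor GATA1 was knocked down. The genes were taken by name: symbols that begin with NDUFA, NDUFB, NDUFC, NDUFS, NDUFV, UQCR, COX4, COX5, COX6, COX7, COX8 or ATP5, with SDHA, SDHB, SDHC, SDHD, CYC1 and CYCS, leaving out assembly factors, pseudogenes and names with a hyphen. Of 27311 symbols in the count table, 89 matched by name, and 79 had a mean of at least 5 raw counts over the 24 libraries and form the set. All 79 passed the filter on low counts. UQCRHL lay just inside the count limit with a mean of 7.96 counts, and ATP5S just outside with 3.50. COX4I2, COX6A2, COX7A1 and COX8C had 0 counts in every library. COX6B2, COX7B2, NDUFA4L2 and ATP5E had means under 1.

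Each library came from K562 cells grown for 48 h after 200000 cells were transfected with an Ambion Silencer Select siRNA. GATA1 was targeted with siGATA1-1 (s5593) at 25 nM or siGATA1-2 (s5594) at 6.25 nM, and the non-targeting siRNAs siNC-1 (4390844) and siNC-2 (4390847) were each used at both doses. Each of the 6 groups held 4 libraries, described as biological replicates. Separate cultures are not stated, so p-values measure the spread between libraries, which may be technical. Because the GATA1 siRNAs were used at unlike doses, a direct comparison of them mixes dose with siRNA, and these cannot be told apart. RNA was read from its 3′ end by BRB-seq, in which barcoded polyadenylated RNA of many samples is pooled.

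The respiratory chain passes electrons from NADH through complex I, or from succinate through complex II, to coenzyme Q, then through complex III and the mobile carrier cytochrome c to complex IV and oxygen. The protons pumped on the way drive complex V, the ATP synthase. Most subunits are made from nuclear genes and a core set from mitochondrial DNA, and erythroid precursors depend on mitochondria for haem synthesis.

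Libraries held 88290 to 473098 counts, and the 79 genes took 2.18% to 2.89% of them. GATA1 was at 289 ± 31.9 CPM, counts scaled to library size (SD, n = 4), with siGATA1-1 against 569 ± 101 (n = 8) in the controls at 25 nM. The siGATA1-2 libraries were at 244 ± 71.4 (n = 4) against 543 ± 47.2 (n = 8) in the controls at 6.25 nM. The knockdown libraries did not overlap the controls for GATA1 at either dose. The lowest totals were those of siNC-2 replicate 1 at 25 nM and siGATA1-2 replicate 3, where 1 count was worth 13.0 and 10.4 CPM. Of 14 erythroid markers, GATA1 among them, 11 were called lower in the mean of both knockdown effects, against 1.88% of all genes. A call is an adjusted p under 0.05 in edgeR's quasi-likelihood test. EPOR at -0.80, TAL1 at -0.53 and GYPB at 0.03 on the log2 scale were not called. Of 15 markers of other cell types 5 were deep enough to test and 1 was called in that mean, EPCAM at -0.91 on the log2 scale (adjusted p = 0.00428); their part in the results was not tested. CD3E, CD14, COL3A1, ALB, VWF and MS4A1 were at or near 0, while CD3D averaged 296 to 447 CPM and was not called. These are bulk libraries, in which fewer cells of a kind and less RNA per cell cannot be told apart.

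Few of the 79 genes changed beyond the spread between libraries, and those that did were led by the cytochrome c gene CYCS and the ATP synthase gene ATP5G1. The effect of each GATA1 siRNA was taken against both non-targeting siRNAs at its own dose, and the mean effect is the average of these 2 differences. In the mean effect CYCS, ATP5G1, CYC1 and COX8A were lower and NDUFB4 was higher, at an adjusted p under 0.05 in edgeR's quasi-likelihood test over all 6738 genes tested. In that comparison 4.48% of all genes were called, 2.6% higher and 1.88% lower, so 5 of 79 genes is a share near the background. At an unadjusted p under 0.05 there were 16 of the 79, against 16.6% of all genes. The other 74 genes did not pass the test. With siGATA1-2 alone 2 genes were called, CYCS and ATP5G1, both lower, where 3.03% of all genes were called (1.75% higher and 1.28% lower), and 13 had an unadjusted p under 0.05, against 15.8% of all genes. With siGATA1-1 alone 0 were called by edgeR, where 0.727% of all genes were called (0.386% higher and 0.341% lower). There 6 of the 79 had an unadjusted p under 0.05, against 6.38% of all genes, and the DESeq2 Wald test also called 0.

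**Figure D1:**
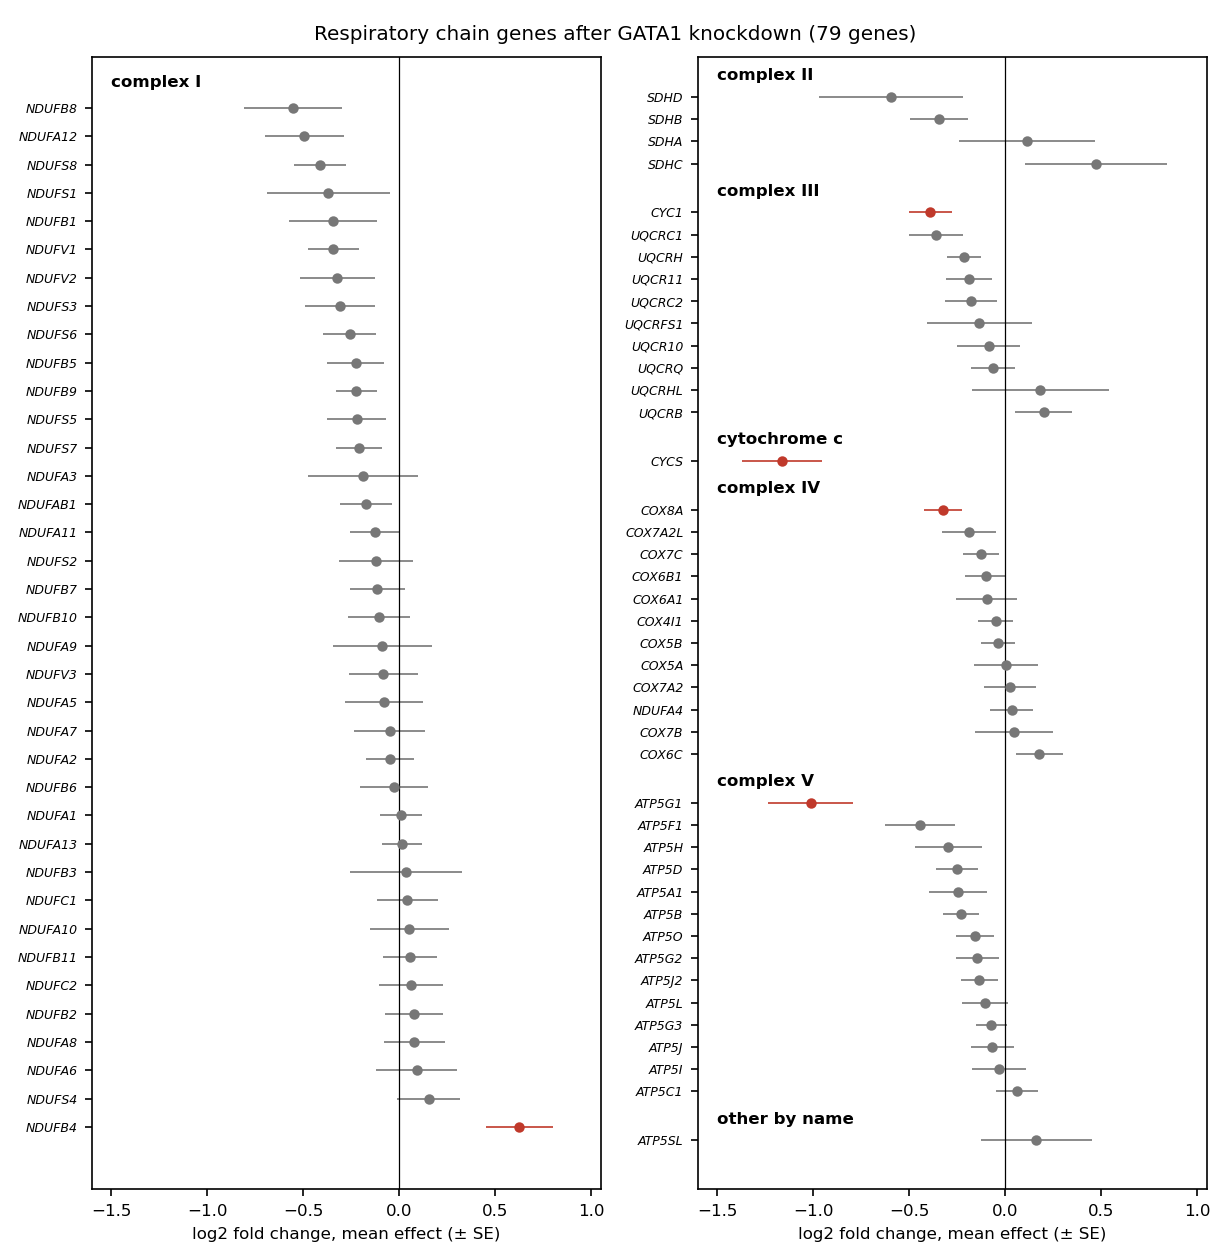
Log2 fold change of each of the 79 genes in the mean of both knockdown effects (x axis, bars ± SE), grouped by complex and sorted within it; genes with an adjusted p under 0.05 are red. CYCS and ATP5G1 lie near -1, and the bulk of the genes lie within 0.5 of 0, more of them to the left than to the right.

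Promoter sequence is shown for 4 of the 5 called genes, as 100-base stretches upstream of the gene start on the gene's strand, 5′ to 3′, from RefSeq (GRCh38.p14). The CYCS and NDUFB4 stretches were placed around a match, from 215 to 116 and from 205 to 106 bases before the start. Those of COX8A and ATP5G1 ran from 100 bases to 1 base before it. Capitals mark a match to a motif searched on both strands.
CYCS, chr7:25125376-25125475, minus strand: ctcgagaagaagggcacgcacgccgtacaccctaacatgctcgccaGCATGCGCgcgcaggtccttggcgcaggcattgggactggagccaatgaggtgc
NDUFB4, chr3:120596131-120596230, plus strand: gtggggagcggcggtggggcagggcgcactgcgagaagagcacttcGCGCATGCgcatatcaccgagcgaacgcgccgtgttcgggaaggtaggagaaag
COX8A, chr11:63974520-63974619, plus strand: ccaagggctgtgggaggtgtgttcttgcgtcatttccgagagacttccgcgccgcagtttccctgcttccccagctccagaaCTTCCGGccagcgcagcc
ATP5G1 (RefSeq symbol ATP5MC1), chr17:48892687-48892786, plus strand: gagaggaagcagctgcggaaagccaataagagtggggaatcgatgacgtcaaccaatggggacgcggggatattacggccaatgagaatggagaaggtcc

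The capitals in CYCS are GCATGCGC, a short form of the NRF1 motif, those in NDUFB4 its reverse complement GCGCATGC, and those in COX8A the reverse complement of the ETS core CCGGAAG. NRF1 and the ETS factor GABP are known regulators of respiratory chain genes. In NDUFB4 the 2 letters after the capitals complete the NRF1 palindrome of 10 letters, which CYCS does not hold. The ATP5G1 stretch is given for comparison and holds no match, but it lies nearer its start than those of CYCS and NDUFB4. An E-box, CACGTG, in the ATP5G1 window lies after the start. The short NRF1 letters stood before a gene that was lower and a gene that was higher. RefSeq windows from 250 bases before to 50 bases after the start were at hand for 64 of the 79 genes, 77 windows in all. CCGGAAG was in 27.3% of these windows and in 10.3% of all 35116 windows. AAGATGGC, the YY1 core, was in 16.9% of the genes' windows and 2.89% of all. GCATGCGC, chosen after the CYCS window was read, was in 20.8% and 3.05%, and the NRF1 palindrome of 10 letters, which contains it, in 5.19% and 1.24%. The windows of the set with GCATGCGC belonged to 15 genes, most of them not called in the mean effect. The GATA letters AGATAA were in 9.09% and 10.3%, and the E-box CACGTG in 9.09% and 7.26%. A match is a description of letters, not of a bound site.

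CYCS encodes cytochrome c, the soluble carrier between complexes III and IV, which also takes part in apoptosis when released from mitochondria. With siGATA1-1 its level in replicates 1 to 4 was 122, 120, 41.3 and 107 CPM, and the 8 controls at 25 nM ran from 90.7 to 268 with a median of 173. In the siGATA1-2 libraries it was 32.4, 102, 31.3 and 45.4 CPM, and the 8 controls at 6.25 nM ran from 107 to 207 with a median of 157. These siGATA1-2 values rest on 7, 21, 3 and 8 raw counts, and the controls at 6.25 nM held 20 to 47. At 25 nM siGATA1-1 replicate 3 and siNC-2 replicate 1 held 7 counts each. All 4 siGATA1-2 libraries were below all 8 controls, while the siGATA1-1 libraries overlapped theirs, since 1 control, siNC-2 replicate 1, was at 90.7. CYCS fell by 1.16 on the log2 scale in the mean effect (SE 0.21, adjusted p = 2.46e-05). It fell by 1.53 with siGATA1-2 (SE 0.32, adjusted p = 9.51e-04), and the value with siGATA1-1 was -0.80 (SE 0.26, adjusted p = 0.228). The difference between these effects was -0.73 (95% interval -1.55 to 0.09), which did not pass the test (adjusted p = 0.975). RefSeq names 45 pseudogenes after CYCS, more than for any other gene of the set, and the counting of reads shared with them was not given in the sources used.

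ATP5G1 encodes subunit c, which forms the proton-carrying ring of the ATP synthase. With siGATA1-1 its level in replicates 1 to 4 was 96.7, 81.2, 35.4 and 104 CPM, against 117 to 158 (median 140) in the 8 controls. In the siGATA1-2 libraries it was 78.8, 62.9, 10.4 and 34.1 CPM, against 47.8 to 177 (median 137). The value of 10.4 CPM, in replicate 3, is 1 raw count. The siGATA1-1 libraries were all below their controls, and the siGATA1-2 libraries overlapped 2 of theirs, siNC-1 replicate 6 at 72.6 and siNC-2 replicate 7 at 47.8. ATP5G1 fell by 1.01 in the mean effect (SE 0.22, adjusted p = 0.00104) and by 1.28 with siGATA1-2 (SE 0.34, adjusted p = 0.0162). With siGATA1-1 the value was -0.75 (SE 0.29, adjusted p = 0.382). The siGATA1-2 call was lost without replicate 3 (-1.07, adjusted p = 0.0916) and without replicate 4 of that siRNA (-1.13, adjusted p = 0.110). The same call was lost without the 2 shallowest libraries (-1.06, adjusted p = 0.0850), with limma voom (adjusted p = 0.115), with only the groups compared in the fit (adjusted p = 0.0657) and against siNC-2 alone (adjusted p = 0.0961).

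ATP5G2 and ATP5G3 encode the same mature subunit c from other precursors, and neither was called. In the mean effect ATP5G2 was at -0.14 (95% interval -0.36 to 0.07) and ATP5G3 at -0.07 (95% interval -0.23 to 0.09). These intervals lie above that of ATP5G1, -1.45 to -0.58, but the difference between the genes was not tested. ATP5G3 ran from 1632 to 2077 CPM with siGATA1-1 and from 1619 to 2888 in its controls. With siGATA1-2 it ran from 1598 to 1984 CPM and from 1621 to 2070 in its controls, so its groups overlapped at both doses. The summed level of the 3 genes was 2380 ± 183 CPM with siGATA1-1 (SD, n = 4) and 2611 ± 429 in its controls (n = 8). Without the shallowest library, siNC-2 replicate 1, these controls averaged 2473 ± 194 CPM (n = 7). The sum was 2168 ± 217 with siGATA1-2 (n = 4) and 2373 ± 183 in its controls (n = 8). RefSeq names 8 pseudogenes after ATP5G1.

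**Figure D2:**
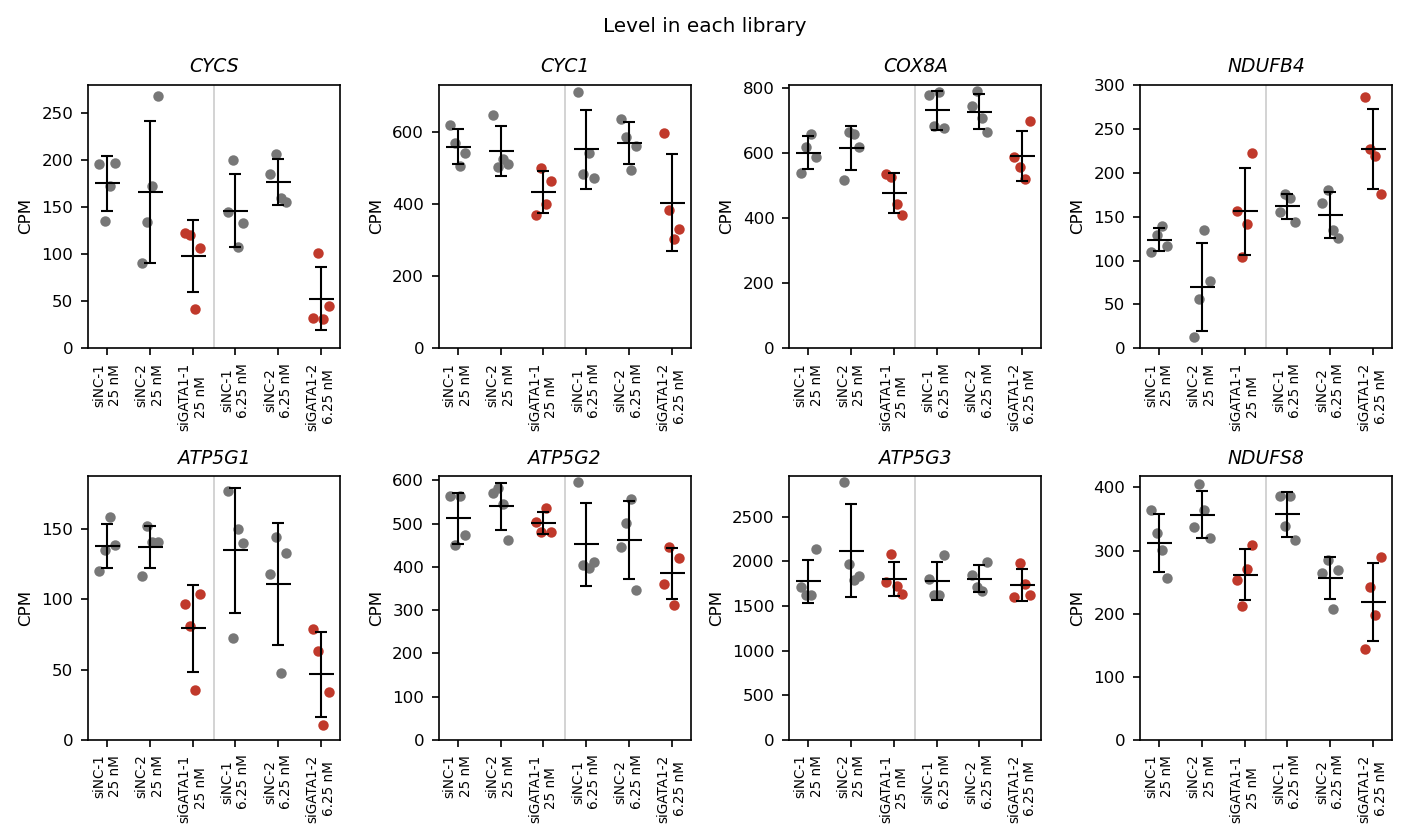
Level (CPM, linear axis from 0) of the 5 called genes, of ATP5G2 and ATP5G3, and of NDUFS8 in each of the 24 libraries; grey points are controls, red points knockdowns, and black bars the mean ± SD of 4 libraries, with 25 nM left and 6.25 nM right of the line. CYCS with siGATA1-2 lies between 31.3 and 102 CPM, below all of its controls, and ATP5G3 shows no such separation.

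CYC1, the haem-bearing cytochrome c1, was the gene of complex III that was called. It was at 370, 498, 401 and 464 CPM with siGATA1-1, against 502 to 648 (median 533) in the controls. The siGATA1-2 libraries were at 598, 382, 302 and 329 CPM, against 471 to 709 (median 552). The siGATA1-1 libraries were all below their controls, while siGATA1-2 replicate 1 was among its controls. Complete separation below the controls was seen for 2 of the 79 genes with siGATA1-1, CYC1 and ATP5G1, and for 0.92% of all genes. With siGATA1-2 it was seen for 1 of the 79, CYCS, and for 0.994% of all genes. None of the 79 lay wholly above the controls, where 0.89% of all genes did with siGATA1-1 and 1.29% with siGATA1-2. CYC1 fell by 0.39 in the mean effect (SE 0.11, adjusted p = 0.0234). That call was lost without siGATA1-1 replicate 1 (-0.35, adjusted p = 0.0762) or 3 (-0.38, adjusted p = 0.0508), siGATA1-2 replicate 3 (-0.35, adjusted p = 0.0687) or 4 (-0.34, adjusted p = 0.0841), or siNC-1 replicate 5 at 6.25 nM (-0.35, adjusted p = 0.0526). It was also lost against siNC-1 alone (adjusted p = 0.0784), against siNC-2 alone (adjusted p = 0.0803) and without the 2 shallowest libraries (-0.33, adjusted p = 0.0754).

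COX8A encodes a small membrane subunit of complex IV. Its level was 535, 526, 442 and 410 CPM with siGATA1-1, against 518 to 665 (median 619) in the controls. In the siGATA1-2 libraries it was 588, 557, 521 and 698 CPM, against 664 to 791 (median 727). Replicates 1 and 2 of siGATA1-1 and replicate 4 of siGATA1-2 lay within the range of their controls, and the others below it. COX8A fell by 0.32 in the mean effect (SE 0.098, adjusted p = 0.0385). This call was the least stable of the 5: it was lost in 15 of the 24 fits that left out 1 library, where the value stayed between -0.37 and -0.28 and the adjusted p of the lost calls was 0.0528 to 0.137. The 15 libraries were siGATA1-1 replicates 3 and 4, siGATA1-2 replicates 1, 2 and 3, siNC-1 replicates 2, 3, 4, 5 and 7, and siNC-2 replicates 2 to 6. It was also lost without a filter on low counts (-0.34, adjusted p = 0.101) and against siNC-1 (-0.31, adjusted p = 0.135) or siNC-2 (-0.33, adjusted p = 0.0967) alone.

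NDUFB4, an accessory subunit in the membrane arm of complex I, was the gene called higher. It was at 156, 104, 141 and 223 CPM with siGATA1-1, against 13.0 to 139 (median 113) in the controls. The siGATA1-2 libraries were at 287, 227, 219 and 176 CPM, against 125 to 181 (median 161). With each siRNA 3 of the 4 libraries were above all of their controls. The lowest value, 13.0 CPM, is 1 count in the shallowest library, siNC-2 replicate 1. NDUFB4 rose by 0.62 in the mean effect (SE 0.18, adjusted p = 0.0199), and by 0.59 without the 2 shallowest libraries (adjusted p = 0.0305). At 25 nM it was at 124 ± 13.2 CPM with siNC-1 and 70.1 ± 50.6 with siNC-2 (SD, n = 4 each), a difference that was not called. Against siNC-1 alone the value was 0.42 and the call was lost (adjusted p = 0.333). It was also lost without siGATA1-1 replicate 4 (0.51, adjusted p = 0.129) and without siGATA1-2 replicate 1 (0.55, adjusted p = 0.0843). Between doses of the controls NDUFB4 was at -0.70 (adjusted p = 0.0789). RefSeq names 12 pseudogenes after NDUFB4.

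Across the set more genes were below 0 than above, by small amounts. In the mean effect 56 of 79 genes (70.9%) were below 0, against 50.3% of all genes, with a median of -0.11 against -0.0029 over all genes. With siGATA1-1 53 were below 0, against 49.3% of all genes, and the median was -0.08, against 0.0056 over all genes. For siGATA1-2 57 were below 0, against 50.9% of all genes, and the median was -0.17, against -0.01. The median with siGATA1-2 was -0.10 without its replicate 4. Between the control siRNAs (siNC-1 minus siNC-2) the median was -0.04 at 25 nM, with 46 of 79 below 0 against 51.9% of all genes, and 0.02 at 6.25 nM, with 36 below 0 against 50.1%. Between the doses of the controls it was -0.06, with 46 below 0 against 51.3% of all genes.

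Library by library, the median difference of the 79 genes from the dose-matched controls was below 0 in all 8 knockdown libraries, from -0.19 to -0.02. The median over all genes in the same libraries ran from -0.07 to 0.05, and in siGATA1-2 replicate 3 it was -0.07, below the -0.04 of the 79 genes. In the other 7 knockdown libraries the 79 genes had the lower median. Their median ran from -0.10 to 0.11 in the 16 controls, so the ranges overlapped. The summed level of the set was 25289, 26352, 25427 and 24209 CPM with siGATA1-1, against 25878 to 33013 (median 26911) in the controls. In the siGATA1-2 libraries it was 25251, 26095, 25979 and 23133 CPM, against 25742 to 29250 (median 27718). The highest control, siNC-2 replicate 1 at 25 nM, was also the shallowest library. Without it the controls at 25 nM averaged 26682 ± 747 CPM (SD, n = 7) in place of 27474 ± 2343 (n = 8), and siGATA1-1 averaged 25319 ± 877 (n = 4). Over the 79 genes the effects of the 2 siRNAs, taken against different control libraries, correlated with a Pearson r of 0.45, or 0.28 without CYCS and ATP5G1. This is a description over genes, which are not independent replicates. Of the 79 genes, 42 were below 0 with both siRNAs, 11 above with both and 26 of opposite sign. Neither the correlation nor these counts were taken over all genes, so they are not shown to be particular to the set.

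**Figure D3:**
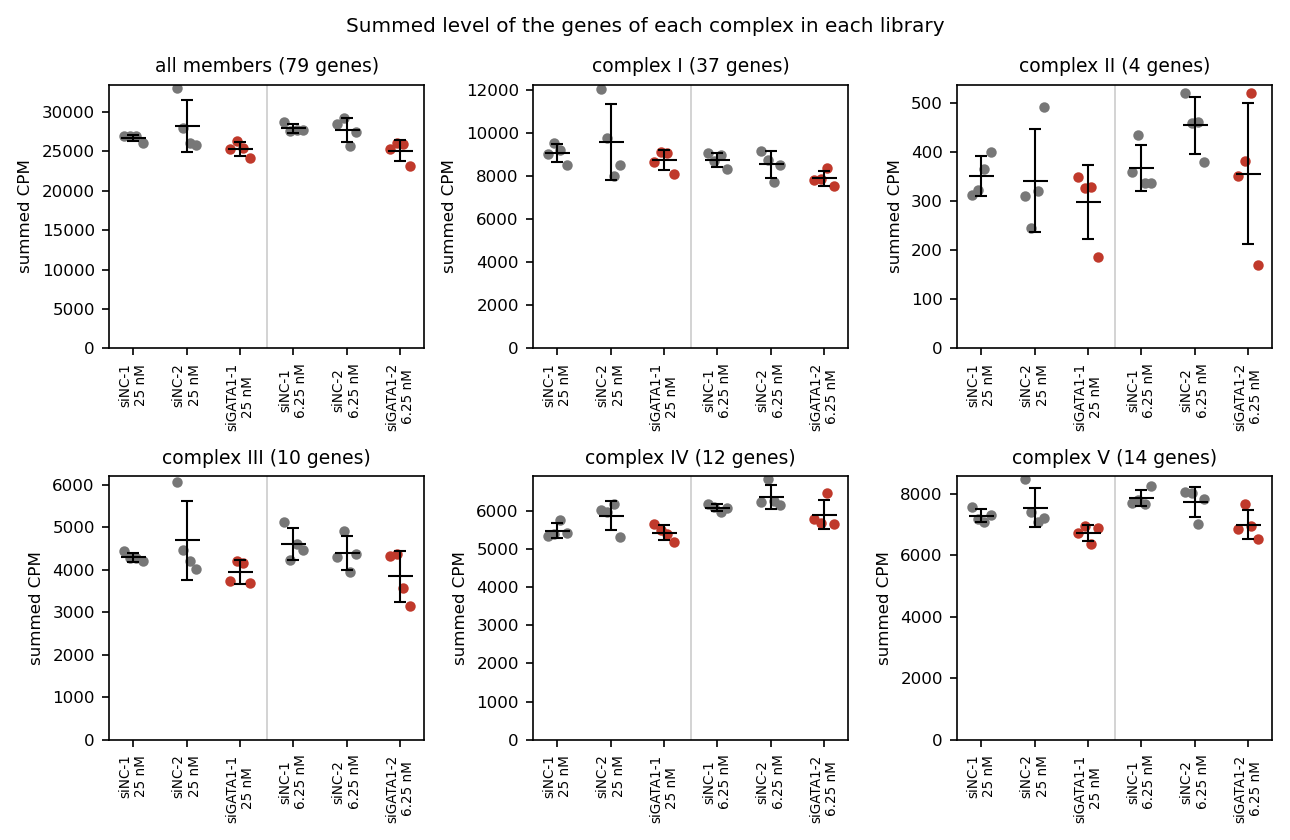
Summed level (CPM, linear axis from 0) of all 79 genes and of the genes of each complex in each library; grey points are controls, red points knockdowns, and black bars the mean ± SD of 4 libraries. Sums in the knockdown libraries lie low in or below the range of their controls for complex V. Those of complex IV with siGATA1-2 lie below all of their controls in replicates 1, 2 and 4. In the panel of all genes siNC-2 replicate 1 at 25 nM stands apart at 33013 CPM.

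Complex I oxidises NADH, and its 7 nuclear core genes encode the arm in which electrons pass from a flavin along iron-sulphur clusters. All 7 were below 0 with each siRNA, from -0.67 to -0.14 with siGATA1-1 and from -0.51 to -0.072 with siGATA1-2, but none was called. Their median in the mean effect was -0.32, and NDUFS8, which binds iron-sulphur clusters, came nearest to the threshold at -0.41 (SE 0.13, adjusted p = 0.0542). NDUFS8 was at 253, 213, 271 and 309 CPM with siGATA1-1, against 256 to 405 (median 332), and at 144, 242, 198 and 289 CPM with siGATA1-2, against 207 to 387 (median 300.5). The groups overlapped at both doses, and at 6.25 nM the control siRNAs were at 357 ± 35.1 CPM (siNC-1) and 256 ± 33.9 CPM (siNC-2; SD, n = 4 each), a difference that was not called. NDUFS8 passed the threshold with the DESeq2 Wald test (adjusted p = 0.0308), with limma voom (adjusted p = 0.0389) and with the stricter filter (adjusted p = 0.0492). Between the control siRNAs 6 of these 7 genes were below 0 at 25 nM, with a median of -0.15, and 4 at 6.25 nM, with a median of -0.10.

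The 30 accessory genes of complex I had a median of -0.07 in the mean effect, with 18 below 0 and NDUFB4 the only call. The lowest of those with at least 20 mean counts was NDUFA12, at -0.49 (SE 0.20, adjusted p = 0.170). NDUFS4, needed for late assembly of the complex, was at 0.15 (adjusted p = 0.713).

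Complex II, which oxidises succinate and is also an enzyme of the citric acid cycle, was read with little depth. SDHA, SDHC and SDHD averaged 9.38, 8.25 and 8.96 counts, and their mean effects of 0.11 (SE 0.36), 0.47 (SE 0.37) and -0.60 (SE 0.38) were not distinguishable from 0 at this depth. SDHB, the iron-sulphur subunit, averaged 63.2 counts and was at -0.35 (SE 0.15, adjusted p = 0.207).

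In complex III, which passes electrons from coenzyme Q to cytochrome c, 8 of 10 genes were below 0 with a median of -0.16. CYC1 was the only call. UQCRB was above 0, at 0.20 (SE 0.15, adjusted p = 0.553). UQCRH was at -0.22 (SE 0.087, adjusted p = 0.159) and UQCRHL, a near-identical copy of it, at 0.18 (SE 0.36). The split of reads between these copies was not given in the sources used. Complex IV, which reduces oxygen, had the median nearest 0 among the complexes, -0.04, with 7 of 12 genes below 0. COX4I1 was at -0.05, COX5B at -0.04, COX7A2 at 0.02 and COX6C at 0.18, none of them called, and the first 3 changed sign under an alternative fit.

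In complex V 13 of 14 genes were below 0 in the mean effect, with a median of -0.15, and ATP5G1 was the only call. After it ATP5F1, subunit b of the stalk, was lowest at -0.44 (SE 0.18, adjusted p = 0.166). The summed level of the 14 genes was 6709, 6960, 6373 and 6874 CPM with siGATA1-1, all below the lowest of the 8 controls, 7074. In the siGATA1-2 libraries it was 6847, 7661, 6940 and 6527 CPM, and replicate 2 lay among the controls, which ran from 7031 to 8242. Low sums were not particular to complex V. With siGATA1-2 the sum of complex IV was 5781, 5677, 6450 and 5647 CPM, against 5975 to 6827 in the controls. That of the complex I core genes was 1167, 1370, 1615 and 1220 CPM, against 1578 to 1681. With siGATA1-1 the core sum was 1289, 1475, 1863 and 1427 CPM, against 1534 to 2475, while complex IV overlapped its controls. ATP5SL, kept by its name and now known as a factor in complex I assembly, was at 0.16 (SE 0.29).

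More genes of the set were called between the doses of the control siRNAs than with either GATA1 siRNA alone. The dose comparison set 8 libraries against 8, and each GATA1 comparison 4 against 8, so these calls were made at unlike precision. The mean effect, in which CYCS, ATP5G1, CYC1, COX8A and NDUFB4 were called, was nearer in precision. The SE of CYCS was 0.21 there and 0.21 between doses. Between 25 and 6.25 nM in the 16 controls 7 of 79 genes were called, where 1.41% of all genes were called. At an unadjusted p under 0.05 there were 29 of the 79, against 13.2% of all genes. At 25 nM 6 were lower, against 0.727% of all genes, and 1 was higher, against 0.683%. The 6 were NDUFC1 of complex I, UQCR10 of complex III, COX7C and COX6A1 of complex IV, and ATP5L and ATP5H, subunits g and d of complex V. The 1 higher at 25 nM was NDUFA2 of complex I. None of the 7 was called in a GATA1 comparison at matched dose.

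NDUFC1 had the largest difference of the 7 called genes. The 8 controls at 25 nM ran from 115 to 180.3 CPM (median 134) and those at 6.25 nM from 177 to 470.3 (median 232), touching only at the ends, with a log2 difference of -0.87 (SE 0.18, adjusted p = 0.00161). The knockdown libraries followed their doses, at 142, 165, 130 and 89.2 CPM with siGATA1-1 at 25 nM and 306, 271, 261 and 261 with siGATA1-2 at 6.25 nM. Taken directly against each other these knockdown groups, which share no library with the controls, differed by -1.06 (SE 0.26, adjusted p = 0.0423). This was the only call among the 79 in that comparison, where 0.223% of all genes were called (0.089% higher and 0.134% lower), and in it dose and siRNA cannot be told apart. There 17 of the 79 had an unadjusted p under 0.05, against 9.07% of all genes, and 43 were below 0, against 49.8%.

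ATP5L ran from 259 to 372 CPM in the controls at 25 nM and from 364 to 601 at 6.25 nM, a log2 difference of -0.62 (SE 0.14, adjusted p = 0.00288). COX7C ran from 569.9 to 773 and from 709 to 1128 CPM, a difference of -0.48 (SE 0.11, adjusted p = 0.00353). Both overlapped at the ends of their ranges. COX6A1 and UQCR10 were each at -0.72 (adjusted p = 0.0157 and 0.0217) and ATP5H at -0.70 (adjusted p = 0.0369). NDUFA2 was at 0.58 (adjusted p = 0.0125), with 326.5 to 855 CPM at 25 nM and 247 to 448 at 6.25 nM and ranges that overlapped. Between the knockdown groups ATP5L was at -0.50, COX7C at -0.46, COX6A1 at -0.43, ATP5H at -0.15, UQCR10 at -0.0030 and NDUFA2 at 0.53, the same signs as in the controls but none of them called.

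Most of these calls rested on both control siRNAs together. With siNC-1 alone, from 4 libraries per dose in place of 8, all 7 calls were lost, ATP5L coming nearest (-0.73, adjusted p = 0.0565). With siNC-2 alone NDUFC1 (-1.15, adjusted p = 0.0133) and NDUFA2 (0.84, adjusted p = 0.0289) stayed called, and NDUFC1 with siNC-1 alone was at -0.59 (adjusted p = 0.582). Of the 24 fits that left out 1 library, NDUFC1, ATP5L and COX7C were lost in 0 and ATP5H in 11, all without a control (adjusted p 0.0516 to 0.142). UQCR10 was lost in 6, without siNC-1 replicate 1 or 7 or siNC-2 replicate 1, 2, 4 or 5 (adjusted p 0.0508 to 0.103). NDUFA2 was lost without siNC-1 replicate 7 (0.52, adjusted p = 0.0506) or siNC-2 replicate 1 (0.48, adjusted p = 0.0568) or 2 (0.53, adjusted p = 0.0530). COX6A1 was lost without siNC-1 replicate 6 (-0.65, adjusted p = 0.0558) or siNC-2 replicate 5 (-0.63, adjusted p = 0.0687). The dose groups also carried different replicate numbers, 1 to 4 and 5 to 8, and depth differed between them for siNC-1, at 322217 to 473098 counts at 25 nM and 178917 to 293901 at 6.25 nM. For siNC-2 the totals overlapped, at 88290 to 455988 and 135533 to 279028. The part of depth or of a shared handling of each dose in the result was not tested. The messages of the set are short, with a median of 757 nt against 2415 nt over all genes with a length (GENCODE). Spearman's rho between length and the dose difference was 0.15 over 78 of the 79 genes and 0.013 over all genes, as a description over genes.

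**Figure D4:**
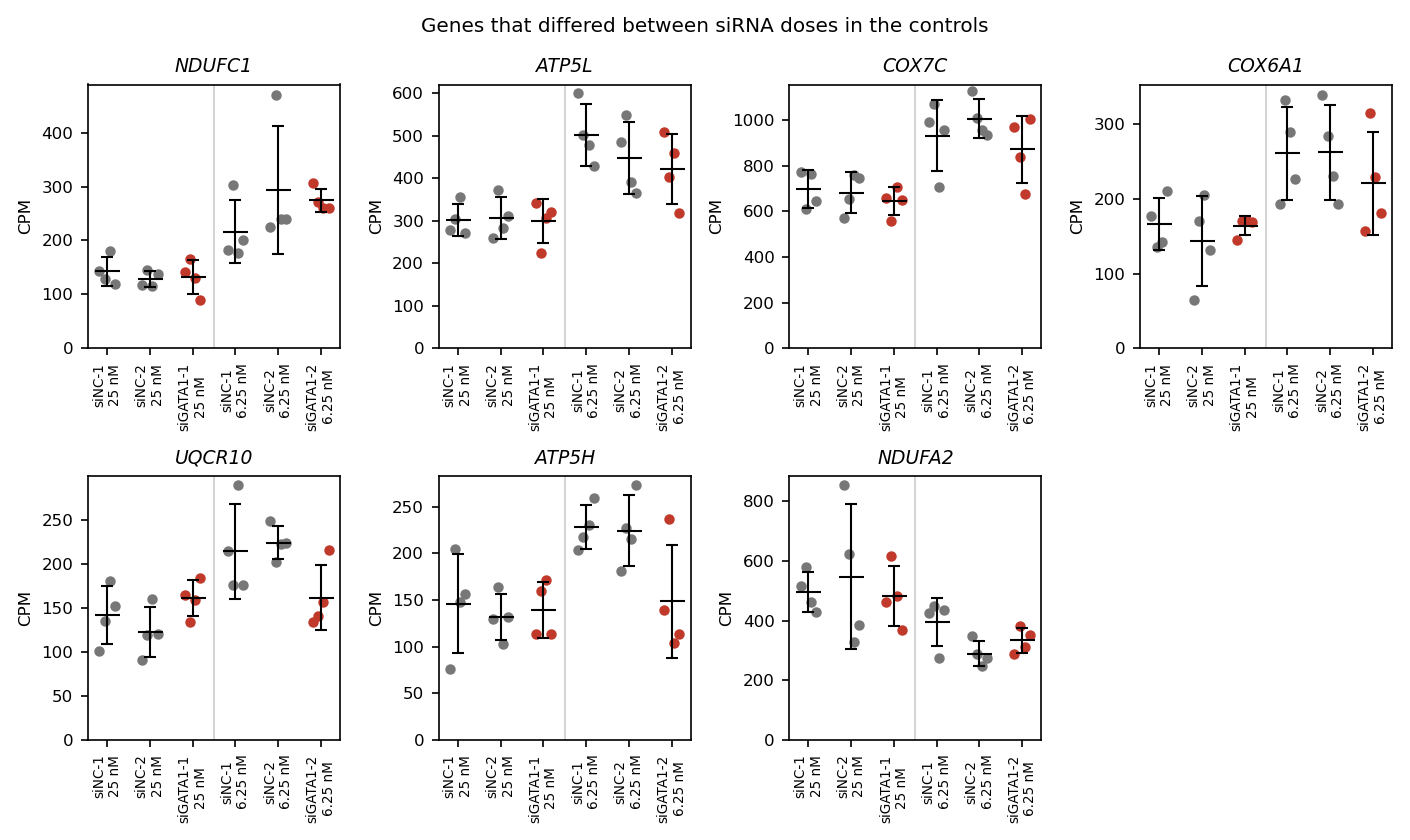
Level (CPM, linear axis from 0) of the 7 genes called between doses of the control siRNAs, in each library; grey points are controls, red points knockdowns, and black bars the mean ± SD of 4 libraries, with 25 nM left and 6.25 nM right of the line. NDUFC1 lies between 89.2 and 180.3 CPM in every library at 25 nM, and at 177 CPM or above in every library at 6.25 nM.

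Between the 2 control siRNAs, at either dose, 0 of the 79 genes were called by edgeR, as were 0% of all genes. At an unadjusted p under 0.05 there were 3 of the 79 at 25 nM, against 1.28% of all genes, and 5 at 6.25 nM, against 3.01%, and the DESeq2 Wald test called 0 of the 79. The difference between the effects, siGATA1-2 minus siGATA1-1, likewise gave 0 calls by edgeR among the 79 and 0% over all genes. In it 2 of the 79 had an unadjusted p under 0.05, against 4.94% of all genes. The difference was below 0 for 50 of the 79, against 50.6% of all genes. The DESeq2 Wald test called 0 of the 79 there.

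Other genes of the pathway were taken from lists set by function, to be read against the 4.48% of all genes called in the mean effect and the 16.6% at an unadjusted p under 0.05. Of 38 tested assembly factors 0 were called in the mean effect by edgeR, and 5 had an unadjusted p under 0.05. Of 9 tested regulators of mitochondrial biogenesis, TFAM fell by 0.76 (SE 0.24, adjusted p = 0.0433). Its protein packages mitochondrial DNA and takes part in its transcription. The TFAM call was lost in 14 of the 24 fits that left out 1 library (adjusted p 0.0502 to 0.151). Those were the fits without siGATA1-1 replicate 1, 3 or 4, siGATA1-2 replicate 1 or 4, or 1 of 9 controls. It was also lost against siNC-1 alone (-0.56, adjusted p = 0.339). Of 17 tested genes of the citric acid cycle and its entry, IDH3B, a subunit of isocitrate dehydrogenase, fell by 0.74 (SE 0.20, adjusted p = 0.0146). The call was lost without siGATA1-1 replicate 3 (-0.66, adjusted p = 0.0503) and against siNC-2 alone (-0.70, adjusted p = 0.0789). Of 7 tested genes of coenzyme Q synthesis 0 were called in the mean effect and 0 had an unadjusted p under 0.05. COQ10B, a coenzyme Q-binding protein, rose by 1.37 with siGATA1-2 (SE 0.38, adjusted p = 0.0261). The call was lost without replicate 4 of that siRNA (0.93, adjusted p = 0.338) and against siNC-1 (1.25, adjusted p = 0.180) or siNC-2 (1.49, adjusted p = 0.0669) alone. Leaving out replicate 5 (adjusted p = 0.0598) or 7 (adjusted p = 0.0635) of siNC-1, or replicate 7 of siNC-2 (adjusted p = 0.05004), also lost it. With siGATA1-1 COQ10B was at -0.47, not called. Between doses of the controls HIGD2A, an assembly factor of complex IV, was at -0.72 (adjusted p = 0.0492), a call lost in 16 of the 24 fits. Mitochondrially encoded subunits were looked for under symbols that begin with MT-, of which the count table held 0, and were not analysed here.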

How the data were processed

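Raw counts by gene symbol, as the authors deposited them, were used for 24 K562 libraries made by BRB-seq. STAR 2.5.6b and hg19 are named in the submitters' processing notes. Annotation, counter, strand setting and molecular-barcode handling were not given in the sources used, so genes with near-identical copies or pseudogenes are uncertain. Date-like symbols (27, 0.123% of counts) were kept in the fit.

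Counts were fitted in edgeR 4.0.16 (R 4.3.3) with TMM scaling, filterByExpr (minimum count 10), 1 mean per group over all 24 libraries, and the robust quasi-likelihood test, with Benjamini-Hochberg adjustment over all 6738 genes tested (93.7% of counts). A call is an adjusted p under 0.05. Levels are CPM on TMM-scaled library sizes, and 95% intervals are 1.96 SE either side. The common biological coefficient of variation was 0.263. The edgeR fit was also run on simulated counts. The outcome is not given here, so that run lends no weight to the calls. Alternatives were DESeq2 1.42.0, limma 3.58.1 voom, other scaling, filters and controls, and leaving out each library; those without the 2 shallowest libraries and with 1 control siRNA for the dose comparison were chosen after seeing the data.

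The genes and lists were chosen with earlier results of these data known. Genes were named if called in any comparison, if among the 6 lowest or highest in the mean effect with at least 20 mean counts, if deepest in their complex, or by role (cytochromes, succinate dehydrogenase, subunit c and UQCRH paralogs), with GATA1 and the called genes of the pathway lists. No replicate pair differed by as little as sampling noise (reduced chi-square over genes 1.86 to 3.35 in 36 pairs). Promoters came from RefSeq and lengths from GENCODE.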

Additional observations from a re-analysis of the deposited data

Results flagged for a closer look

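In 12 of 126 groups of 4 libraries the highest or lowest library stood far from the others by Dixon's test at the 95% level, which chance gives in about 1 of 20 groups. Single genes with such a library were GATA1 in siGATA1-1 replicate 3 (242 CPM, others 300.3 to 308), ATP5G2 in siNC-1 replicate 5 at 6.25 nM (596, others 397 to 410.3) and ATP5G3 in siNC-2 replicate 1 at 25 nM (2888, others 1786 to 1973). CYC1 stood apart in that same library (648 CPM, others 502 to 525), which is the shallowest. NDUFC1 was high in siNC-2 replicate 6 at 6.25 nM (470.3 CPM, others 225 to 239). NDUFA2 was low in siNC-1 replicate 7 at 6.25 nM (274 CPM, others 424 to 448), and COX6A1 was low in siGATA1-1 replicate 1 (145 CPM, others 169 to 171).

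Among summed levels, that of all 79 genes was low in siNC-1 replicate 4 at 25 nM (26098 CPM, others 26903 to 26927) and high in siNC-1 replicate 5 at 6.25 nM (28713 CPM, others 27573 to 27748). Complex II was low in siGATA1-1 replicate 4 (187 CPM, others 328 to 349.9). Complex IV was high in siGATA1-2 replicate 3 (6450.4 CPM, others 5647 to 5781) and in siNC-2 replicate 6 at 6.25 nM (6827 CPM, others 6136 to 6250.3).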

How the results depend on the processing

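In the mean effect CYCS (log2 values -1.46 to -1.05) and ATP5G1 (-1.19 to -0.91) kept their calls in every alternative fit run, single left-out libraries included. For siGATA1-2 the 2 genes lower became 1 with limma voom, with only the groups compared, against siNC-2 alone, and without the 2 shallowest libraries. In the mean effect siNC-1 alone gave 0 higher and 2 lower. Against all 16 controls together siGATA1-1 gave 1 lower and siGATA1-2 1 higher. Between control doses the 6 lower genes became 3 without a filter, 0 with siNC-1 alone and 1 with siNC-2 alone; the 1 higher became 2 with the stricter filter, 2 with DESeq2 and 0 with siNC-1 alone. Leaving out 1 library, siGATA1-2 gave 1 to 3 lower with a median between -0.21 and -0.097, the mean effect 0 to 1 higher and 2 to 5 lower, and the dose comparison 0 to 2 higher and 4 to 6 lower. The 2 lower in the mean effect came without siGATA1-2 replicate 3 or siNC-1 replicate 5, and the median of -0.097 without siGATA1-2 replicate 4. The other counts of called genes of the set kept within 1.5 times in the fits run. The cause of these changes was not tested, apart from fewer libraries or more genes tested where the alternative is built so.

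Small log2 values in the mean effect changed sign: without a filter NDUFA1 (-0.0056); with limma voom COX7A2 (-0.059) and SDHA (-0.13); against siNC-1 alone COX4I1 (0.010), COX5B (0.0068) and NDUFA8 (-0.029). Against siNC-2 alone these were COX7A2 (-0.093), NDUFA1 (-0.0097), NDUFA2 (0.040) and NDUFC1 (-0.043), and without the 2 shallowest libraries COX7A2 (-0.12), NDUFA2 (0.018), NDUFA6 (-0.037) and SDHA (-0.15). Leaving out 1 library the ranges were COX4I1 -0.10 to 0.0065, COX5B -0.11 to 0.0098, COX7A2 -0.12 to 0.11, COX7B -0.063 to 0.14, NDUFA1 -0.049 to 0.11, NDUFA2 -0.12 to 0.013, NDUFA4 -0.046 to 0.076, NDUFA6 -0.017 to 0.19, NDUFC1 -0.024 to 0.12 and SDHA -0.18 to 0.31.

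Same-numbered libraries did not deviate together (r over 0.1 in 2 of 12 pairs, from -0.093 to 0.30), so the numbers were not taken as pairs. With the replicate number as a block over the 12 libraries at 25 nM, siGATA1-1 gave 0 genes of the set higher and 0 lower, with a median of -0.0955 against -0.08, and no call on the set changed. The controls at 6.25 nM share no number with siGATA1-2, so no paired fit was possible there. Depth limits the precision: SDHA, SDHC and SDHD, with under 10 mean counts, had SEs of 0.36 to 0.38 in the mean effect, and COX8A, with 154 mean counts, 0.098.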
